A study of Mus musculus with 16 samples.

Results

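The response of normal skeletal muscle to AICAR was measured by RNA-seq of the *gastrocnemius*, a calf muscle of mostly fast-twitch fibres, in FVB/N control mice. The mice were chosen by their labels alone. At 3 months of age, 3 of them had received AICAR at 500 mg/kg for 7 days and 3 had received vehicle, which makes 6 of the 16 mice of the study. The other 10 were HSALR mice, which carry a transgene with expanded CTG repeats driven by the human skeletal actin promoter and serve as a model of myotonic dystrophy type 1 (5 with AICAR, 5 with vehicle). The control mice are labelled as the background strain of that line, without the transgene. RNA came from a portion of the powdered muscle of each mouse, with 1 library per mouse, so that all cell types of the tissue contributed. The route, the number of injections, the composition of the vehicle, the sex of the mice and the time between the last dose and dissection are not given in the sources used here, and no sequencing batch or date is named.

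AICAR is a nucleoside that enters cells through nucleoside transporters and is phosphorylated by adenosine kinase to ZMP, which mimics AMP. ZMP binds the gamma subunit of AMP-activated protein kinase (AMPK), a trimer of a catalytic alpha subunit with a beta and a gamma subunit that is switched on when cellular energy is low. In skeletal muscle, active AMPK is known to promote glucose uptake and fatty acid oxidation and to restrain the growth kinase complex mTORC1, and its repeated activation is known to raise the coactivator PGC-1α, hexokinase II and mitochondrial genes. The comparison asked which of these pathways, and which other genes, differed at the level of mRNA between AICAR-treated and vehicle-treated control muscle.

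Between 69752809 and 78780617 reads per control mouse were counted on genes, and all values below are normalised CPM, the count of a gene relative to the total of its library after scaling by edgeR's TMM factors (0.906 to 1.05 in control mice). Values of single mice are always given in the order S445, S446 and S450 for vehicle and S447, S448 and S449 for AICAR. Genes were tested by edgeR's quasi-likelihood test in a fit of all 16 libraries, and p-values were adjusted over the 15487 genes tested by the Benjamini-Hochberg method. A gene is called higher or lower only where its adjusted p was under 0.05. Defining genes of skeletal muscle were abundant in every mouse: their summed level over 10 markers was 148901, 156296 and 126245 in vehicle-treated and 136051, 128094 and 184981 in AICAR-treated mice. Some libraries stood apart within their group. Summed over 13 slow-fibre contractile genes, the level was 6456, 6529 and 16853 in vehicle-treated and 7129.9, 8052 and 3881 in AICAR-treated mice, so that vehicle mouse S450 was the highest and AICAR mouse S449 the lowest. The interferon-inducible genes described below were highest in vehicle mice S445 and S446. The 10 epidermal markers summed to 2.26, 3.30 and 144 in vehicle-treated and 2.42, 168 and 2.39 in AICAR-treated mice, so that S450 and S448 carried RNA of epidermal genes and the other 4 mice hardly any. The part of these differences in the results below was not tested, and the counts of the gene lists are therefore also given without both S448 and S450, a fit that leaves 2 mice in each group. In parentheses after a list, the shares and the counts under other settings come in pairs, with members called higher first and lower second, and the shares stand against those of all genes tested (8.40% and 4.77%). The lists were chosen with earlier results of these data known, so the shares are a description and not a test. In RNA of whole muscle, fewer cells of a type and less RNA per cell cannot be told apart.

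AICAR changed 2039 of 15487 genes in control muscle (13.2%). Of these, 1301 were higher (8.40% of the genes tested) and 738 were lower (4.77%), and the change was at least 2-fold for 230 of the higher and 139 of the lower genes. These 369 genes were 219 without S449 and 227 without both S448 and S450. The highest increases among genes with at least 50 counts on average and no overlap between the groups were those of *Ifi30*, a thiol reductase of lysosomes, *Nr4a3*, an orphan nuclear receptor, and *Clec4d*, a C-type lectin. The deepest decreases were those of *Tgtp1* and *Tgtp2*, interferon-inducible GTPases, and of *Nmrk2*, a nicotinamide riboside kinase of muscle. Over all genes tested the median log2 fold change was -0.01. When libraries were scaled by their totals alone, 916 genes were higher and 890 lower, so that the share of higher genes among the calls was 50.7% rather than 63.8%, and the median of all genes was -0.05. Leaving out 1 mouse at a time gave between 1143 calls (without S449) and 1726 calls (without S447), with 1214 without S445 and 1344 without S448, and 817 without both S448 and S450.

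**Figure D1:**
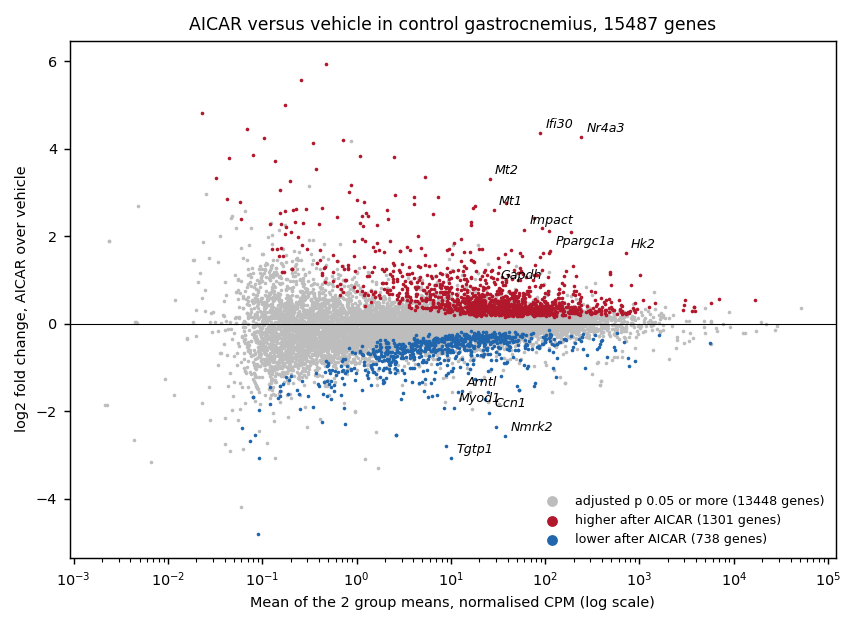
Each of 15487 points is a gene, with the mean of the vehicle and AICAR group means in normalised CPM on a log scale (x axis) and the log2 fold change of AICAR over vehicle in control muscle (y axis). Red points are the 1301 higher and blue points the 738 lower genes, and named genes such as *Ifi30*, *Nr4a3* and *Mt2* stand at the top while *Tgtp1* and *Nmrk2* stand at the bottom.

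Genes of the AMPK complex itself did not pass the test, whereas its partner folliculin and a binding partner of folliculin rose. *Prkaa2*, the gene of the main catalytic subunit of muscle, was at 525, 472 and 502 normalised CPM with vehicle and 524, 479 and 615 with AICAR, and *Prkaa1*, that of the other, at 27.5, 25.9 and 30.3 with vehicle and 25.3, 24.6 and 25.0 with AICAR. Their log2 fold changes were 0.11 (adjusted p = 0.54) and -0.16 (adjusted p = 0.28). *Prkag3*, which codes for the gamma subunit particular to fast muscle, was at 228, 193 and 146 normalised CPM with vehicle and 136, 87.2 and 129.6 with AICAR, with all 3 AICAR values below the vehicle values. It missed the threshold (log2 fold change -0.68, adjusted p = 0.063), and without S450 it was past it (adjusted p = 0.043). *Stk11*, the gene of the upstream kinase LKB1, had a log2 fold change of -0.18 (adjusted p = 0.078). *Flcn* codes for folliculin, which acts with the FNIP proteins at the lysosome and is a binding partner of AMPK (chromosome 11, 59791408 to 59810039). It was at 62.3, 70.9 and 71.5 normalised CPM with vehicle and 118, 149 and 165 with AICAR, without overlap (log2 fold change 1.08, SE 0.19, adjusted p = 0.0020). Its partner *Fnip2* was at 10.5, 7.36 and 8.55 normalised CPM with vehicle and 14.4, 29.9 and 27.6 with AICAR, with S447 the lowest of the AICAR mice (log2 fold change 1.45, SE 0.28, adjusted p = 0.0034). *Strada*, the pseudokinase that activates LKB1, was at 15.8, 16.0 and 14.5 normalised CPM with vehicle and 20.7, 20.4 and 25.3 with AICAR, a smaller but separated increase (log2 fold change 0.52, SE 0.09, adjusted p = 0.0022). In the list of 24 genes of AMPK, its upstream kinases and related kinases, 3 were higher and 0 lower (12.5% and 0%, against 8.40% and 4.77%), with a median log2 fold change of 0.16. Between 3 and 4 were higher with 1 mouse left out, and the number lower was 1 without S450, against higher and lower counts of 2 and 0 without both S448 and S450, 3 and 2 with library totals and 6 and 2 with DESeq2. The call of *Fnip2* (adjusted p = 0.052) was lost without both S448 and S450.

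The genes that handle AICAR and purines were mostly without a call. *Adk*, the kinase that forms ZMP, was at 99.6, 88.7 and 104 normalised CPM with vehicle and 103, 107 and 101 with AICAR, so that the groups overlapped (log2 fold change 0.09, SE 0.07, adjusted p = 0.44). The transporter gene *Slc29a1* was at 40.1, 36.1 and 42.7 with vehicle and 37.2, 38.3 and 36.3 with AICAR in the same order, also overlapping (log2 fold change -0.09, SE 0.09, adjusted p = 0.57). *Atic*, which codes for the enzyme that consumes ZMP in purine synthesis, had a log2 fold change of -0.05 (adjusted p = 0.66). AMP deaminase genes did not pass the test either, with log2 fold changes of -0.18 for *Ampd1* and 0.11 for *Ampd3*. The exceptions sit at the branch point after IMP. *Impdh1*, whose enzyme leads from IMP to GMP, was at 12.2, 13.1 and 13.2 normalised CPM with vehicle and 17.3, 17.5 and 18.5 with AICAR. Every AICAR value lay above every vehicle value (log2 fold change 0.47, SE 0.08, adjusted p = 0.0017). *Adssl1*, the muscle enzyme that leads from IMP to AMP, was at 818, 769 and 743 normalised CPM with vehicle and 593, 546 and 615 with AICAR. Every AICAR value lay below (log2 fold change -0.41, SE 0.09, adjusted p = 0.0065). These were the 1 higher and 1 lower of 32 genes tested (3.12% and 3.12%, against 8.40% and 4.77%, and 1 and 0 without both S448 and S450), and both calls held without each single mouse. The call of *Adssl1* (adjusted p = 0.0505) was lost without both S448 and S450.

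Genes of glucose uptake and phosphorylation set how much glucose enters and stays in the fibre. *Hk2*, the gene of hexokinase II, which phosphorylates glucose on entry, rose. It was at 378, 357 and 326 normalised CPM with vehicle and 917, 901 and 1406 with AICAR, 3.04-fold higher and without overlap (log2 fold change 1.60, SE 0.17, adjusted p = 5.5e-05). The gene of the insulin-regulated transporter GLUT4, *Slc2a4*, was at 639.9, 613 and 642 normalised CPM with vehicle and 685, 703 and 767 with AICAR. The 3 AICAR values lay above the vehicle values, and the difference did not pass the test (log2 fold change 0.19, SE 0.09, adjusted p = 0.17). *Tbc1d1*, an AMPK substrate that holds GLUT4 vesicles back until phosphorylated, was at 114, 145 and 77.9 normalised CPM with vehicle and 193, 266 and 376 with AICAR (log2 fold change 1.31, SE 0.28, adjusted p = 0.0066). The related *Tbc1d4* did not pass the test (log2 fold change 0.00, adjusted p = 1.0). *Arrdc4*, an arrestin-like gene that limits glucose uptake and is induced by sugar phosphates, was at 14.5, 19.9 and 14.2 normalised CPM with vehicle and 36.6, 34.7 and 41.3 with AICAR (log2 fold change 1.21, SE 0.20, adjusted p = 0.0014). Its better known relative *Txnip* was at 834, 695 and 622 with vehicle and 903, 906 and 1148 with AICAR and missed the threshold (adjusted p = 0.29). *Slc2a3*, the gene of another glucose transporter, fell from 4.34, 3.62 and 5.84 to 2.10, 1.87 and 1.69 normalised CPM (log2 fold change -1.28, SE 0.25, adjusted p = 0.0043). Of 14 genes of glucose uptake and phosphorylation, 3 were higher and 1 lower (21.4% and 7.14%, against 8.40% and 4.77%, and 3 and 2 without S445, 2 and 0 without both S448 and S450, 3 and 2 with library totals and 3 and 2 with DESeq2). The calls of *Tbc1d1* (adjusted p = 0.062) and *Slc2a3* (0.056) were lost without both S448 and S450.

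In glycogen metabolism, *Ugp2*, which makes the UDP-glucose used for glycogen, was at 919, 895 and 831 normalised CPM with vehicle and 1098, 1375 and 1347 with AICAR (log2 fold change 0.53, SE 0.10, adjusted p = 0.0031). *Ppp1r3c*, a targeting subunit that brings a phosphatase to glycogen and so favours its synthesis, was at 490.5, 641 and 780.2 normalised CPM with vehicle and 1190.0, 1264 and 1692 with AICAR (log2 fold change 1.12, SE 0.29, adjusted p = 0.020). *Ppp1r3c* was not called without S445 (adjusted p = 0.086), S446 (0.053) or S449 (0.083). Glycogen phosphorylase, *Pygm*, had a log2 fold change of 0.04 (adjusted p = 0.86). Of 17 glycogen genes, 3 rose and 0 fell (17.6% and 0%, against 8.40% and 4.77%). Between 1 and 3 were higher with 1 mouse left out (1 without each of S445, S446 and S449), against higher and lower counts of 1 and 0 without both S448 and S450. The call of *Ugp2* (adjusted p = 0.065) was lost without both S448 and S450.

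Of 24 genes of glycolysis and lactate handling, 13 rose (54.2%, against 8.40% of all genes) and 0 fell, with a median log2 fold change of 0.41 against -0.01 for all genes. Between 10 and 13 were higher with 1 mouse left out, against higher and lower counts of 7 and 0 without both S448 and S450 and 6 and 0 with the control libraries alone. *Gpi1*, the isomerase at the entry of glycolysis, was at 586, 591 and 535 normalised CPM with vehicle and 918, 979 and 1258 with AICAR, without overlap (log2 fold change 0.88, SE 0.11, adjusted p = 0.00015). *Pgk1*, an ATP-forming step of the pathway, was at 333, 328 and 283 with vehicle and 468, 451.671 and 502 with AICAR (log2 fold change 0.59, SE 0.09, adjusted p = 0.00062). *Gapdh*, which has many near-identical processed pseudogenes that may share its reads, was at 21.3, 23.8 and 17.2 with vehicle and 37.5, 34.7 and 43.6 with AICAR (log2 fold change 0.89, SE 0.12, adjusted p = 0.00035). This level is far below those of *Ldha* and *Pfkm* given next. How many *Gapdh* reads were dropped or counted elsewhere is not known, so its change is uncertain. Among genes of lactate handling, *Ldha*, the muscle form of lactate dehydrogenase, was at 2538, 2825 and 1991 with vehicle and 3475, 3374 and 3885 with AICAR (log2 fold change 0.55, SE 0.13, adjusted p = 0.010). The monocarboxylate carriers rose together: *Slc16a1* was at 73.6, 71.8 and 81.6 with vehicle and 121, 120.5 and 125 with AICAR (log2 fold change 0.69, SE 0.12, adjusted p = 0.0015). *Slc16a3* was at 165, 184 and 122 with vehicle and 268, 228 and 292 with AICAR (log2 fold change 0.74, SE 0.14, adjusted p = 0.0028). The committed step gene *Pfkm* was at 3422, 3565 and 2854 with vehicle and 4177, 3868 and 4718 with AICAR (log2 fold change 0.38, SE 0.10, adjusted p = 0.026). *Pfkm* was not called without S445 (adjusted p = 0.052), S449 (0.11), S450 (0.11) or both S448 and S450 (0.095). Within this pathway *Pfkfb3*, whose enzyme makes the activator of phosphofructokinase, had overlapping groups and no call (log2 fold change -0.28, SE 0.40, adjusted p = 0.70), and *Ldhb*, the heart form of lactate dehydrogenase, had none either (log2 fold change -0.32, adjusted p = 0.43). The call of *Ldha* (adjusted p = 0.067) was lost without both S448 and S450.

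**Figure D2:**
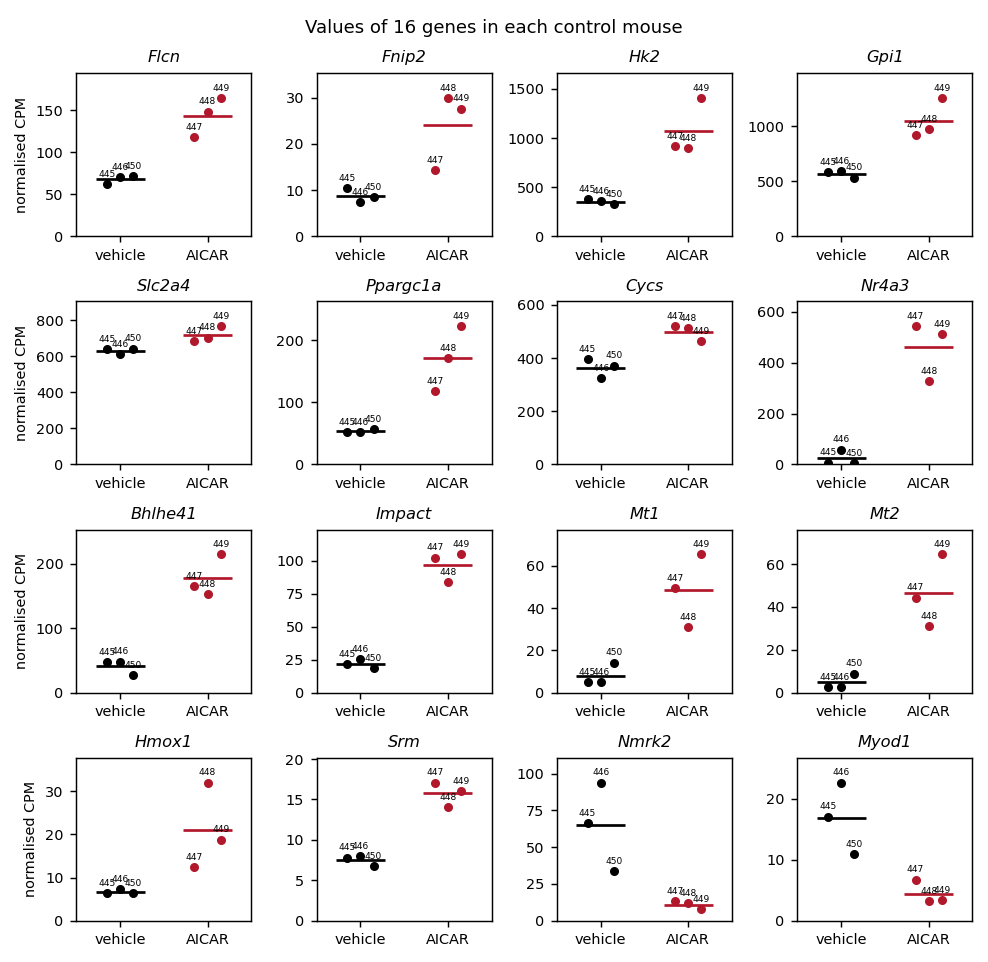
Normalised CPM of 16 genes (y axes, from 0) in each control mouse, with vehicle in black, AICAR in red, the mouse number above each point and a line at the group mean. The groups are separate for all 16 genes shown; *Slc2a4* is the only one of them without a call, and *Nmrk2* and *Myod1* are the ones that fell.

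At the entry of pyruvate into mitochondria, the 2 subunits of pyruvate dehydrogenase rose. *Pdhb* was at 262, 225 and 275 normalised CPM with vehicle and 405, 433 and 427 with AICAR, 1.66-fold higher (log2 fold change 0.73, SE 0.07, adjusted p = 3.0e-05). *Pdha1* was at 1186, 926 and 1161 with vehicle and 1372, 1442 and 1459 with AICAR (log2 fold change 0.38, SE 0.09, adjusted p = 0.0084). *Pdk4* codes for a kinase that shuts pyruvate dehydrogenase and is a classic target of fasting and glucocorticoids. It was at 411, 535 and 364 normalised CPM with vehicle and 209.9, 233 and 149 with AICAR. All AICAR values were below the vehicle values, and the difference did not pass the test (log2 fold change -1.15, SE 0.49, adjusted p = 0.13). The list gave 4 higher and 0 lower of 14 genes (28.6% and 0%, against 8.40% and 4.77%). Between 2 and 4 were higher with 1 mouse left out (2 without each of S446, S447 and S448), against higher and lower counts of 2 and 0 without both S448 and S450, 2 and 0 with library totals and 1 and 1 with the control libraries alone.

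Genes of fatty acid uptake and oxidation showed fewer calls, 4 higher and 0 lower of 40 (10.0% higher, near the 8.40% of all genes). Between 2 and 4 were higher with 1 mouse left out (2 without each of S446, S447 and S448), against higher and lower counts of 0 and 0 without both S448 and S450, 1 and 0 with library totals and 0 and 0 with the control libraries alone. The fatty acid importer *Cd36* (log2 fold change -0.06, SE 0.17, adjusted p = 0.86), lipoprotein lipase *Lpl* (log2 fold change -0.32, SE 0.21, adjusted p = 0.34) and the carnitine transferase *Cpt1b* (log2 fold change 0.03, SE 0.10, adjusted p = 0.86) had overlapping groups and no call. *Acacb* makes the malonyl-CoA that inhibits carnitine transfer and is itself inhibited by AMPK. It was at 399, 374 and 387 normalised CPM with vehicle and 474, 512 and 720.3 with AICAR (log2 fold change 0.56, SE 0.13, adjusted p = 0.012). *Acacb* was not called without S449 (adjusted p = 0.051) or both S448 and S450 (0.0504). *Acot13*, a mitochondrial thioesterase, rose from 71.0, 65.1 and 68.3 to 80.4, 82.5 and 79.5 normalised CPM (log2 fold change 0.25, SE 0.06, adjusted p = 0.0088). *Ucp3* and *Angptl4*, targets of fatty acid-sensing receptors, had no call (adjusted p = 0.60 and 0.58). The call of *Acot13* (adjusted p = 0.092) was lost without both S448 and S450.

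*Ppargc1a*, the gene of PGC-1α, the coactivator that drives mitochondrial gene programmes, was at 52.6, 52.3 and 56.7 normalised CPM with vehicle and 118, 171 and 222 with AICAR (chromosome 5, 51454249 to 52115853). The vehicle mice lay within a narrow range and all AICAR mice above it, 3.16-fold higher on average (log2 fold change 1.66, SE 0.27, adjusted p = 0.0011). The related *Ppargc1b* did not pass the test (log2 fold change -0.20, SE 0.19, adjusted p = 0.55). *Perm1*, a muscle regulator downstream of PGC-1α, was at 277, 261 and 295 with vehicle and 351, 439 and 411 with AICAR (log2 fold change 0.53, SE 0.12, adjusted p = 0.011). *Perm1* was not called without S448 (adjusted p = 0.058) or both S448 and S450 (0.079). *Nrip1*, a corepressor that opposes mitochondrial genes, also rose, from 26.7, 25.7 and 15.6 to 56.3, 37.5 and 49.2 (log2 fold change 1.07, SE 0.25, adjusted p = 0.012). *Nrip1* was not called without S450 (adjusted p = 0.051). *Ppard*, a fatty acid receptor with a known role in endurance muscle, was at 28.8, 30.1 and 30.3 with vehicle and 49.4, 36.6 and 51.4 with AICAR (log2 fold change 0.62, SE 0.15, adjusted p = 0.013). *Ppard* was not called without S445 (adjusted p = 0.0504) or S449 (0.064). Among oestrogen-related receptors the directions differed. *Esrra* had a log2 fold change of 0.28 (adjusted p = 0.049), a call lost without any 1 of the 6 mice (adjusted p between 0.055 and 0.16). *Esrrg*, which is highest in slow fibres, fell from 35.2, 28.9 and 52.0 to 22.2, 22.6 and 20.5 normalised CPM (log2 fold change -0.83, SE 0.21, adjusted p = 0.016); vehicle mouse S450, with its high slow-fibre genes, was the highest. *Esrrg* was not called without S449 (adjusted p = 0.064), S450 (0.081) or both S448 and S450 (0.13). *Tfam*, the transcription factor of mitochondrial DNA, had no call (log2 fold change -0.06, adjusted p = 0.62). In all, 8 of 32 such regulators were higher and 1 lower (25% and 3.12%, against 8.40% and 4.77%). Between 3 and 6 were higher with 1 mouse left out (3 without each of S449 and S450, 4 without S445 and 5 without S448), and the number lower was 0 without each of S449 and S450, against higher and lower counts of 3 and 0 without both S448 and S450 and 5 and 1 with the control libraries alone.

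Many nuclear genes of the tricarboxylic acid cycle and of the respiratory chain rose, each by a small amount. Of 19 genes of the cycle, 8 were higher and 0 lower (42.1% and 0%, against 8.40% and 4.77%), with a median log2 fold change of 0.21. Between 4 and 7 were higher with 1 mouse left out (4 without each of S446 and S448 and 5 without S450), against higher and lower counts of 1 and 0 without both S448 and S450, 4 and 0 with library totals and 2 and 0 with the control libraries alone. Of 36 complex I genes, 11 were higher and 0 lower (30.6% and 0%, against 8.40% and 4.77%). All 36 had a positive log2 fold change, between 0.03 and 0.37. Between 4 and 10 were higher with 1 mouse left out (4 without each of S446 and S448, 5 without S447 and 6 without S450), against higher and lower counts of 2 and 0 without both S448 and S450, 3 and 0 with library totals, 3 and 0 with the control libraries alone and 18 and 0 with DESeq2. Of 39 genes of complexes III to V and cytochrome c, 15 were higher and 0 lower (38.5% and 0%, against 8.40% and 4.77%), with log2 fold changes between -0.11 and 0.53. Between 6 and 15 were higher with 1 mouse left out (6 without S446, 7 without S448 and 9 without S447), against higher and lower counts of 2 and 0 without both S448 and S450, 7 and 0 with library totals and 3 and 0 with the control libraries alone. *Atp5g1*, which codes for the membrane ring of ATP synthase, had the smallest adjusted p of its list at 169, 145 and 159 normalised CPM with vehicle and 232, 221 and 228 with AICAR (log2 fold change 0.53, SE 0.07, adjusted p = 0.00039). *Cycs*, the gene of cytochrome c, was at 396, 325 and 372 normalised CPM with vehicle and 519, 512 and 464 with AICAR (log2 fold change 0.45, SE 0.09, adjusted p = 0.0055). *Cox5a*, a subunit of cytochrome oxidase, was at 433, 403 and 458.619 with vehicle and 562, 577 and 558 with AICAR (log2 fold change 0.39, SE 0.07, adjusted p = 0.0026), and *Cox4i1* of the same complex had an adjusted p of 0.033. *Cox4i1* was not called without S446 (adjusted p = 0.13), S447 (0.092), S448 (0.14), S450 (0.064) or both S448 and S450 (0.19). In the cycle, *Dlst* of the oxoglutarate dehydrogenase complex was at 369, 325 and 342 with vehicle and 429, 451.004 and 468 with AICAR (log2 fold change 0.38, SE 0.07, adjusted p = 0.0019), whereas *Cs*, the gene of citrate synthase, often used as a mitochondrial marker, had no call (log2 fold change 0.08, adjusted p = 0.41). Vehicle mouse S446 was the lowest of the 6 for *Atp5g1*, *Cycs*, *Cox5a* and *Dlst*, and AICAR mice did not reach down to the vehicle range for any of these. The call of *Cycs* (adjusted p = 0.059) was lost without both S448 and S450.

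Among genes of the mitochondrial ribosome, 24 of 75 were higher and 0 lower (32% and 0%, against 8.40% and 4.77%), with a median log2 fold change of 0.14. Between 13 and 19 were higher with 1 mouse left out (13 without S448 and 14 without S446), against higher and lower counts of 7 and 0 without both S448 and S450, 10 and 0 with library totals and 13 and 0 with the control libraries alone. *Mrpl42* was at 94.4, 92.8 and 78.9 normalised CPM with vehicle and 116, 117 and 133 with AICAR (log2 fold change 0.46, SE 0.08, adjusted p = 0.0016). *Mrpl12*, which also binds the mitochondrial RNA polymerase, was at 118, 110.2 and 118 with vehicle and 158, 155 and 141 with AICAR (log2 fold change 0.39, SE 0.08, adjusted p = 0.0044). For cytosolic ribosomal proteins, 7 of 81 were higher (8.64%, near the 8.40% of all genes) and 0 lower (3 and 0 without each of S445, S446, S448 and S450, 2 and 0 without S447, 4 and 0 without S449, 1 and 0 without both S448 and S450, 3 and 0 with library totals, 2 and 0 with the control libraries alone and 11 and 0 with DESeq2). Many of these genes have near-identical pseudogene copies, so their counts are uncertain. Of 37 proteasome subunits, 2 were higher and 0 lower (5.41% and 0%, against 8.40% and 4.77%, and 1 and 0 without each of S445, S446, S447 and S448, 3 and 2 without S450, 2 and 0 without both S448 and S450, 1 and 0 with library totals, 1 and 0 with the control libraries alone and 4 and 1 with DESeq2).

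**Figure D3:**
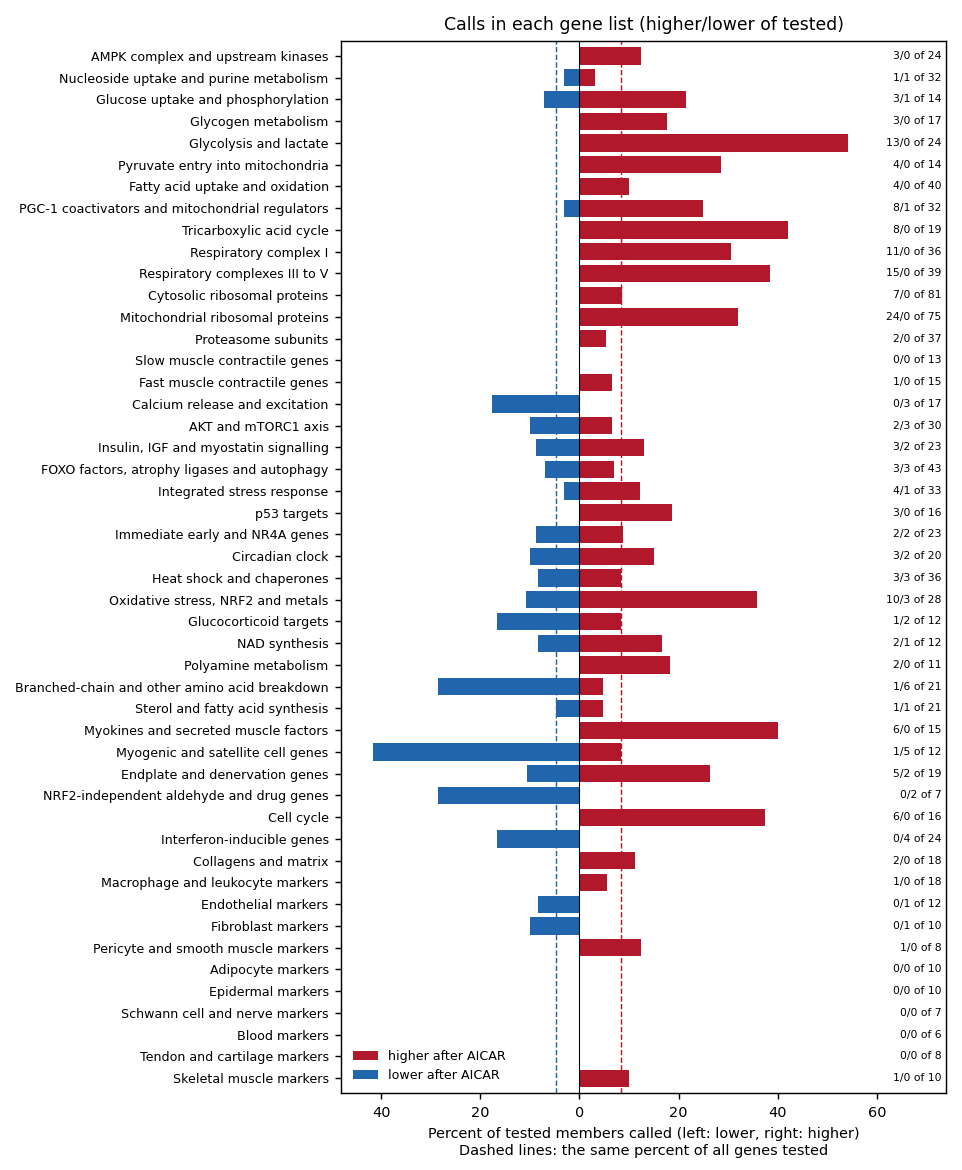
For each of 48 gene lists, the bar to the right gives the percent of its tested members called higher after AICAR and the bar to the left the percent called lower, with the counts at the right edge (higher/lower of tested). Dashed lines mark the percent of all 15487 genes called in each direction, 8.40% higher and 4.77% lower; the longest bars are glycolysis to the right (13 of 24) and myogenic genes to the left (5 of 12).

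With all mice, *Mybpc2* was the only gene of the slow and fast contractile lists to pass the test; *Myl6b*, a slow light chain described below, was called lower and is in neither list. Of 13 slow genes, 0 were higher and 0 lower (0% and 0%, against 8.40% and 4.77%, and 0 and 1 without each of S445 and S446, 0 and 0 without both S448 and S450 and 0 and 3 with DESeq2), although all 13 had a negative log2 fold change (median -0.77), with 3 at an unadjusted p under 0.05, 3 by DESeq2 and 0 by limma. *Myh7*, the slow myosin heavy chain, was at 1506, 1647 and 4812 normalised CPM with vehicle and 1671, 1939.6 and 905 with AICAR: S450 was the highest, S449 the lowest, and the remaining vehicle and AICAR mice were alike (log2 fold change -0.82, SE 0.42, adjusted p = 0.21). Without S450 its log2 fold change was -0.07, and without S449 it was -0.56. *Tnni1*, the slow troponin I, followed the same order with 264, 265 and 892 with vehicle and 319, 343 and 118 with AICAR (log2 fold change -0.87, SE 0.45, adjusted p = 0.22). Its log2 fold change was -0.03 without S450 and -0.52 without S449. Of the fast myosin genes, *Myh4* (type 2B) was at 46709, 52177 and 37063 with vehicle and 49397, 46589 and 77356 with AICAR. *Myh1* (type 2X) was at 5408, 4230.2 and 3513 with vehicle and 5116, 5793 and 5872 with AICAR and *Myh2* (type 2A) at 5105, 2958 and 3423 with vehicle and 2762, 3475 and 2522 with AICAR. Each had overlapping groups (adjusted p = 0.29, 0.27 and 0.25). Per kilobase, the level of *Myh4* was 7506 with vehicle and 9571 with AICAR, against 728 with vehicle and 929 with AICAR for *Myh1* and 629 with vehicle and 480.0 with AICAR for *Myh2*, the order of a fast muscle. *Mybpc2*, fast myosin-binding protein C, was at 5433, 6509 and 4855 with vehicle and 7226, 7063 and 10648 with AICAR (log2 fold change 0.57, SE 0.15, adjusted p = 0.024). *Mybpc2* was not called without S445 (adjusted p = 0.078), S449 (0.12), S450 (0.094) or both S448 and S450 (0.078). The 15 fast contractile genes thus gave 1 higher and 0 lower (6.67% and 0%, against 8.40% and 4.77%, and 0 and 0 without each of S445 and S449, 0 and 4 without S450, 0 and 0 without both S448 and S450, 1 and 3 with library totals, 0 and 0 with the control libraries alone and 1 and 1 with DESeq2). Among 17 genes of calcium release and excitation, 0 were higher and 3 lower (0% and 17.6%, against 8.40% and 4.77%, and 0 and 1 without each of S445, S448 and S450, 1 and 1 without S447, 0 and 0 without both S448 and S450, 1 and 3 with library totals, 0 and 1 with the control libraries alone and 1 and 3 with DESeq2). *Stac3*, an adaptor that the voltage sensor needs for calcium release, was at 272, 284 and 265 normalised CPM with vehicle and 233, 201 and 229.8 with AICAR (log2 fold change -0.31, SE 0.07, adjusted p = 0.0078). The call of *Stac3* (adjusted p = 0.055) was lost without both S448 and S450.

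The AKT and mTORC1 axis gave 2 higher and 3 lower of 30 genes (6.67% and 10%, against 8.40% and 4.77%). Between 1 and 3 were lower with 1 mouse left out (1 without each of S447 and S448), and the number higher was 1 without each of S445, S446, S448 and S449 and 4 without S447, against higher and lower counts of 1 and 1 without both S448 and S450, 1 and 3 with library totals and 1 and 1 with the control libraries alone. *Akt1*, a kinase downstream of insulin and IGF receptors, rose in a narrow range from 45.3, 45.1 and 45.9 to 65.4, 71.6 and 65.8 normalised CPM (log2 fold change 0.57, SE 0.06, adjusted p = 7.0e-05). *Ddit4l* (REDD2), a repressor of mTORC1, fell 2.01-fold, from 320.5, 346 and 391 to 168, 188 and 170.3 (log2 fold change -1.01, SE 0.18, adjusted p = 0.0027). The better known repressor *Ddit4* (REDD1) ranged widely among vehicle mice, at 19.9, 7.56 and 67.3, and had no call (adjusted p = 0.26). *Sesn2*, a leucine sensor, was at 2.76, 4.14 and 2.40 with vehicle and 1.81, 1.98 and 1.56 with AICAR (log2 fold change -0.80, SE 0.24, adjusted p = 0.037). *Sesn2* was not called without S445 (adjusted p = 0.058), S446 (0.17), S447 (0.077), S448 (0.061), S449 (0.13) or both S448 and S450 (0.0504). *Mtor* (adjusted p = 0.091) and *Eif4ebp1* (adjusted p = 0.13) did not pass the test; *Mtor* did without S447 (adjusted p = 0.048).

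Growth-factor and myostatin genes gave 3 higher and 2 lower of 23 (13.0% and 8.70%, against 8.40% and 4.77%, and 0 and 2 without each of S445 and S450, 2 and 2 without S446, 0 and 4 without S447, 1 and 2 without S449, 0 and 0 without both S448 and S450, 1 and 2 with the control libraries alone and 3 and 4 with DESeq2). Their median log2 fold change was -0.26. *Igfbp5*, an IGF-binding protein, fell from 1186, 1058 and 1259 to 666, 604 and 672 normalised CPM (log2 fold change -0.85, SE 0.18, adjusted p = 0.0062). *Acvr2b*, the receptor of myostatin and activins, fell from 50.6, 46.1 and 47.0 to 25.4, 25.3 and 25.9, with hardly any spread among the AICAR mice (log2 fold change -0.91, SE 0.21, adjusted p = 0.010). Myostatin itself, *Mstn*, had overlapping groups (log2 fold change -0.35, adjusted p = 0.32). *Smad3*, which carries the signal of these receptors, was at 136, 167 and 152 with vehicle and 253, 203 and 303 with AICAR (log2 fold change 0.73, SE 0.22, adjusted p = 0.038). *Smad3* was not called without S445 (adjusted p = 0.13), S446 (0.060), S447 (0.073), S449 (0.15), S450 (0.089) or both S448 and S450 (0.079). For the ligands *Tgfb1* and *Tgfb2* the log2 fold changes were 0.72 (SE 0.19, adjusted p = 0.020) and 0.47 (SE 0.13, adjusted p = 0.022). *Tgfb1* was not called without S445 (adjusted p = 0.074), S447 (0.082), S450 (0.071) or both S448 and S450 (0.12). *Tgfb2* was not called without S445 (adjusted p = 0.065), S447 (0.063), S449 (0.099), S450 (0.090) or both S448 and S450 (0.0504). The calls of *Igfbp5* (adjusted p = 0.066) and *Acvr2b* (0.066) were lost without both S448 and S450.

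Of 43 FOXO, atrophy and autophagy genes, 3 were higher and 3 lower, near the shares of all genes (6.98% and 6.98%, against 8.40% and 4.77%, and 2 and 4 without S446, 3 and 1 without S447, 3 and 2 without each of S448 and S450, 2 and 3 without S449, 1 and 1 without both S448 and S450, 1 and 1 with the control libraries alone and 5 and 4 with DESeq2). *Foxo3*, a transcription factor that AMPK phosphorylates, was at 15.3, 16.6 and 17.2 normalised CPM with vehicle and 24.4, 20.9 and 32.9 with AICAR (log2 fold change 0.67, SE 0.13, adjusted p = 0.0046). *Foxo1* was at 21.8, 24.7 and 27.6 normalised CPM with vehicle and 81.8, 29.1 and 39.4 with AICAR, with S447 far above the others. It missed the threshold (log2 fold change 1.02, SE 0.37, adjusted p = 0.081), and without S448 it was past it (adjusted p = 0.043). Without S447 its log2 fold change was 0.47 (adjusted p = 0.40). The atrophy ligase *Trim63* (MuRF1) was at 178, 225 and 301 with vehicle and 505, 347 and 484 with AICAR and missed it as well (log2 fold change 0.92, SE 0.34, adjusted p = 0.085). *Fbxo32* (atrogin-1) had overlapping groups (log2 fold change 0.07, SE 0.32, adjusted p = 0.92). *Ctsd*, the lysosomal protease cathepsin D, rose by a small amount, at 543, 571 and 576 with vehicle and 656, 742 and 820.1 with AICAR (log2 fold change 0.39, SE 0.09, adjusted p = 0.0082). *Tfeb*, the transcription factor that drives lysosome genes, fell from 97.3, 103 and 88.9 to 70.1, 59.6 and 71.3 normalised CPM (log2 fold change -0.52, SE 0.10, adjusted p = 0.0039). *Ulk1*, the kinase that AMPK phosphorylates to start autophagy, was at 108, 117 and 115 with vehicle and 81.5, 84.9 and 102 with AICAR (log2 fold change -0.35, SE 0.09, adjusted p = 0.023). *Ulk1* was not called without S446 (adjusted p = 0.068), S447 (0.085), S448 (0.084), S450 (0.062) or both S448 and S450 (0.16). The call of *Ctsd* (adjusted p = 0.060) was lost without both S448 and S450.

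In the integrated stress response, 4 of 33 genes were higher and 1 lower (12.1% and 3.03%, against 8.40% and 4.77%). Between 3 and 5 were higher with 1 mouse left out, and the number lower was 2 without S447, against higher and lower counts of 4 and 1 without both S448 and S450, 4 and 2 with library totals, 3 and 2 with the control libraries alone and 4 and 3 with DESeq2. The factors *Atf4* (log2 fold change -0.28, SE 0.09, adjusted p = 0.060) and *Atf5* (log2 fold change -0.57, SE 0.11, adjusted p = 0.0038) had negative values, of which that of *Atf5* passed the test. *Impact*, which restrains the kinase GCN2 and so acts against this response, was at 21.7, 25.3 and 18.8 normalised CPM with vehicle and 102, 83.7 and 105 with AICAR, 4.42-fold higher (log2 fold change 2.14, SE 0.20, adjusted p = 1.8e-05). The large neutral amino acid transporter rose in both chains: *Slc7a5* was at 4.15, 5.75 and 5.27 with vehicle and 19.5, 9.92 and 16.5 with AICAR (log2 fold change 1.60, SE 0.26, adjusted p = 0.0011). Its partner *Slc3a2* was at 29.6, 32.7 and 29.7 with vehicle and 41.5, 40.4 and 41.1 with AICAR (log2 fold change 0.42, SE 0.07, adjusted p = 0.0022). *Trib3* had no call (adjusted p = 0.86), and the secreted factors of the response were near their floor, with *Gdf15* at 0.0569, 0.268 and 0.0815 with vehicle and 0.427, 0.393 and 0.315 with AICAR (adjusted p = 0.10, and 0.025 without S446) and Fgf21 at 0 to 0.0510 in all 6 mice, below the filter of the test. Of 16 p53 targets, 3 were higher and 0 lower (18.8% and 0%, against 8.40% and 4.77%, and 2 and 0 without both S448 and S450), including *Phlda3*, an inhibitor of AKT, at 35.4, 45.9 and 26.1 normalised CPM with vehicle and 65.2, 74.5 and 74.2 with AICAR (log2 fold change 0.99, SE 0.15, adjusted p = 0.00084). *Bax*, a mediator of cell death, was at 8.17, 8.67 and 7.32 with vehicle and 11.2, 10.7 and 11.4 with AICAR (log2 fold change 0.46, SE 0.08, adjusted p = 0.0026). *Cdkn1a*, the best known target, had no call (log2 fold change -0.46, adjusted p = 0.43).

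Both metallothioneins of the muscle, small proteins that bind zinc and copper, rose strongly. *Mt1* was at 4.89, 5.08 and 14.2 normalised CPM with vehicle and 49.6, 31.03 and 65.4 with AICAR, 6.04-fold higher (log2 fold change 2.60, SE 0.47, adjusted p = 0.0026). *Mt2* was at 2.66, 2.68 and 8.83 normalised CPM with vehicle and 44.4, 31.2 and 64.5 with AICAR, 9.88-fold higher (log2 fold change 3.30, SE 0.58, adjusted p = 0.0020). Within each group the mice kept the same order for both genes, with S450 the highest of the vehicle mice and S449 of the AICAR mice. Without S450 the log2 fold changes were 3.29 for *Mt1* and 4.13 for *Mt2*. The genes are neighbours on chromosome 8 (*Mt1* chromosome 8, 94178883 to 94180327; *Mt2* chromosome 8, 94172618 to 94173567), and their promoters are known for metal response elements, bound by the zinc-sensing factor MTF1. The cores searched were TGCACNC and TGCGCNC, on both strands, in the 300 bases around each start in RefSeq (GRCm38.p6, the same assembly as mm10). The promoter of *Mt1* held 3 matches and that of *Mt2* held 4; of the 12103 tested genes with a promoter in the table, 39.2% held at least 1. A stretch of each is shown with a core in capitals, for *Mt1* chr8:94179055-94179084 on the plus strand, 34 to 5 bases before the start and for *Mt2* chr8:94172479-94172508 on the plus strand, 139 to 110 bases before the start. The start used for *Mt1* in the promoter table lies inside the gene range given above, so that its stretch, before this start, is within that range:
Mt1: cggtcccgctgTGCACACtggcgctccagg
Mt2: cgcagacccttTGCGCTCagctcctttgct

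Oxidative stress genes otherwise moved in both directions, with 10 higher and 3 lower of 28, the metallothioneins included (35.7% and 10.7%, against 8.40% and 4.77%). Between 8 and 10 were higher with 1 mouse left out, and the number lower was 1 without each of S446, S448 and S450, against higher and lower counts of 4 and 1 without both S448 and S450 and 6 and 2 with the control libraries alone. *Hmox1*, haem oxygenase and a classic target of the antioxidant factor NRF2, was at 6.34, 7.38 and 6.47 normalised CPM with vehicle and 12.5, 32.0 and 18.8 with AICAR, with S448 the highest (log2 fold change 1.65, SE 0.32, adjusted p = 0.0041). *Gclc*, the enzyme that limits glutathione synthesis, was at 13.5, 16.0 and 14.5 with vehicle and 18.2, 23.5 and 25.4 with AICAR (log2 fold change 0.61, SE 0.11, adjusted p = 0.0031). In the other direction, the glutathione transferase *Gstm2* fell from 49.5, 55.6 and 46.4 to 28.5, 27.9 and 26.3 normalised CPM, with little spread in either group (log2 fold change -0.87, SE 0.08, adjusted p = 2.4e-05). *Nqo1*, another NRF2 target, was at 23.8, 21.8 and 24.6 with vehicle and 19.8, 19.2 and 15.6 with AICAR (log2 fold change -0.36, SE 0.11, adjusted p = 0.0499). *Nqo1* was not called without S445 (adjusted p = 0.12), S446 (0.059), S448 (0.069), S449 (0.20), S450 (0.14) or both S448 and S450 (0.16). Heat shock genes gave 3 higher and 3 lower of 36 (8.33% and 8.33%, against 8.40% and 4.77%, and 1 and 3 without S445, 2 and 3 without S448, 1 and 1 without S449, 0 and 1 without both S448 and S450 and 1 and 1 with the control libraries alone). The inducible *Hspa1a* (log2 fold change 0.88, SE 0.62, adjusted p = 0.38) and the small heat shock gene *Hspb1* (log2 fold change -0.27, SE 0.19, adjusted p = 0.38) had overlapping groups, and without S449 the log2 fold change of *Hspa1a* was 0.24. *Hspa1l* fell from 19.3, 18.9 and 27.7 to 14.1, 12.9 and 9.94 (log2 fold change -0.84, SE 0.16, adjusted p = 0.0032). *Xbp1*, a factor of the endoplasmic reticulum stress response, rose from 97.8, 109 and 88.9 to 129.8, 145 and 141 (log2 fold change 0.49, SE 0.10, adjusted p = 0.0055). The calls of *Hmox1* (adjusted p = 0.057), *Gclc* (0.0505) and *Xbp1* (0.091) were lost without both S448 and S450.

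Immediate early genes, which respond to muscle activity and handling within minutes to hours, gave 2 higher (8.70%, against 8.40% of all genes) and 2 lower (8.70%, against 4.77%) of 23. Between 2 and 4 were higher with 1 mouse left out (4 without S446), and the number lower was 0 without each of S446 and S449 and 1 without each of S445 and S450, against higher and lower counts of 2 and 1 without both S448 and S450 and 5 and 5 with DESeq2. *Nr4a3* (NOR-1), an exercise-responsive nuclear receptor, was at 7.20, 58.4 and 6.69 normalised CPM with vehicle and 543, 328 and 513 with AICAR (chromosome 4, 48045078 to 48086447). The vehicle mice ranged widely, S446 being far above the other 2, yet every AICAR mouse was higher still, 19.1-fold on average (log2 fold change 4.26, SE 0.75, adjusted p = 0.0021), and the call held without each single mouse. Without S446 the log2 fold change was 6.05. Its relative *Nr4a1* had overlapping groups at 195, 385 and 145 with vehicle and 517, 268 and 355 with AICAR (log2 fold change 0.65, SE 0.63, adjusted p = 0.54), and its log2 fold change was 0.37 without S447 and 0.39 without S450. *Maff*, a small MAF protein that pairs with NRF2 and BACH factors, was at 3.33, 6.41 and 7.16 normalised CPM with vehicle and 45.7, 14.4 and 20.3 with AICAR, with S447 the highest (log2 fold change 2.25, SE 0.49, adjusted p = 0.0077). Without S447 its log2 fold change was 1.62. *Fos* was at 13.5, 14.4 and 9.48 normalised CPM with vehicle and 4.22, 4.88 and 6.89 with AICAR, all AICAR values below the vehicle values, and missed the threshold (log2 fold change -1.23, SE 0.39, adjusted p = 0.052). *Egr1* had overlapping groups (adjusted p = 0.86). *Atf3* was at 7.63, 22.3 and 11.2 with vehicle and 19.2, 34.1 and 52.6 with AICAR without a call (log2 fold change 1.36, SE 0.44, adjusted p = 0.054), with adjusted p values of 0.022 without S446 and 0.028 without S447.

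Clock genes moved in both directions. The activators *Arntl* (BMAL1) and *Npas2* fell, *Arntl* from 15.5, 17.2 and 25.3 to 7.00, 6.57 and 6.26 normalised CPM (log2 fold change -1.55, SE 0.38, adjusted p = 0.015). *Npas2* fell from 1.02, 1.11 and 1.64 to 0.284, 0.314 and 0.172 (log2 fold change -2.28, SE 0.61, adjusted p = 0.024). Vehicle mouse S450 was the highest for both. *Arntl* was not called without S449 (adjusted p = 0.060), S450 (0.060) or both S448 and S450 (0.13). *Npas2* was not called without S447 (adjusted p = 0.055), S448 (0.056), S449 (0.095), S450 (0.072) or both S448 and S450 (0.12). *Bhlhe41* (DEC2), a repressor of clock activators, was at 47.3, 47.9 and 27.4 normalised CPM with vehicle and 165, 152 and 214 with AICAR, 4.33-fold higher (log2 fold change 2.12, SE 0.33, adjusted p = 0.00096), and its call held without each single mouse. *Nr1d1* (REV-ERBα), a repressor of *Arntl*, was at 188, 172 and 138 with vehicle and 103, 67.4 and 68.7 with AICAR and missed the threshold (log2 fold change -1.06, SE 0.35, adjusted p = 0.058); the gene overlaps Thra, and the use of strand in counting is not given in the sources used here. The phase markers *Per1* (adjusted p = 0.78) and *Dbp* (adjusted p = 0.86) had no call, and the hour of dissection is not given. Altogether 3 of 20 clock genes were higher and 2 lower (15% and 10%, against 8.40% and 4.77%, and 2 and 2 without S445, 2 and 1 without S447, 3 and 1 without S448, 2 and 0 without S449, 3 and 0 without S450, 2 and 0 without both S448 and S450, 5 and 3 with the control libraries alone and 6 and 3 with DESeq2). Glucocorticoid targets gave 1 higher and 2 lower of 12 (8.33% and 16.7%, against 8.40% and 4.77%, and 1 and 3 without each of S445 and S446, 2 and 2 without S450, 3 and 0 without both S448 and S450 and 2 and 2 with DESeq2). *Zbtb16* was at 40.8, 51.7 and 62.7 with vehicle and 80.8, 99.1 and 154 with AICAR (log2 fold change 1.11, SE 0.23, adjusted p = 0.0058). *Sgk1* was at 147, 147 and 248 with vehicle and 55.1, 73.2 and 103 with AICAR (log2 fold change -1.23, SE 0.27, adjusted p = 0.0073). *Fkbp5* was at 17.5, 19.8 and 52.96 with vehicle and 61.7, 41.5 and 81.5 with AICAR without a call (log2 fold change 1.03, SE 0.40, adjusted p = 0.10). S450 lay with the AICAR mice, and without it *Fkbp5* had a log2 fold change of 1.72 (adjusted p = 0.010). The call of *Sgk1* (adjusted p = 0.094) was lost without both S448 and S450.

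An E-box, the letters CACGTG, is the motif known to be bound by clock activators and their DEC repressors, by glucose-sensing MLX partners and by lysosomal TFE factors. It was searched in the same promoters (the motif reads alike on both strands), and 11.2% of the 12103 held it. Among the named genes called higher without overlap, 102 had a promoter in the table, and 23 of them (22.5%) held it, given as a description without a test. For the metal response element cores the share was 37.3% (38 of the 102), against 39.2% of all. The 102 come largely from lists chosen with earlier results of these data known. No such tally was made for named genes that were lower or not called, so a link of the motif to AICAR was not tested. The E-box is shown for 3 of the 23, *Arrdc4*, *Bhlhe41* and *Ifi30*, picked after the search because they hold the motif, with 1 match in each. The stretches are chr7:68749414-68749443 on the minus strand, 205 to 176 bases before the start for *Arrdc4*, chr6:145865556-145865585 on the minus strand, 165 to 136 bases before the start for *Bhlhe41*, and chr8:70766842-70766871 on the minus strand, 208 to 179 bases before the start for *Ifi30*:
Arrdc4: aaaggtcctgtgCACGTGcactatggtgtc
Bhlhe41: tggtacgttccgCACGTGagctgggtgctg
Ifi30: atccaaaaacttCACGTGaccagacatgct

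NAD and polyamine genes held large changes of single enzymes. *Nmrk2*, which makes NAD from nicotinamide riboside and is known to rise under energy stress, was at 66.4, 93.9 and 34.0 normalised CPM with vehicle and 13.1, 11.7 and 7.83 with AICAR (chromosome 10, 81198170 to 81202265); all AICAR values lay below, 5.94-fold lower on average (log2 fold change -2.57, SE 0.49, adjusted p = 0.0034). *Nampt*, the enzyme that limits NAD salvage and a known AMPK-responsive gene, rose from 196, 169.6 and 211 to 253, 283 and 292 normalised CPM (log2 fold change 0.52, SE 0.09, adjusted p = 0.0015). These stood among 2 higher and 1 lower of 12 NAD genes (16.7% and 8.33%, against 8.40% and 4.77%, and 1 and 1 without each single mouse, 1 and 1 without both S448 and S450 and 1 and 1 with library totals). *Srm*, spermidine synthase, was at 7.81, 8.00 and 6.73 normalised CPM with vehicle and 17.1, 14.1 and 16.1 with AICAR (log2 fold change 1.07, SE 0.15, adjusted p = 0.00039). *Smox*, which oxidises spermine, was at 61.8, 65.6 and 37.1 with vehicle and 145, 119 and 119.8 with AICAR (log2 fold change 1.22, SE 0.30, adjusted p = 0.015). *Smox* was not called without S450 (adjusted p = 0.062) or both S448 and S450 (0.097). *Odc1*, the entry enzyme of the pathway, had no call (adjusted p = 0.16), and of 11 polyamine genes 2 were higher and 0 lower (18.2% and 0%, against 8.40% and 4.77%, and 1 and 0 without S450 and 1 and 0 without both S448 and S450). For the breakdown of branched-chain and other amino acids, 6 of 21 genes fell (28.6%, against 4.77% of all genes) and 1 rose. Between 2 and 7 were lower with 1 mouse left out (2 without S449 and 3 without each of S445 and S450), and the number higher was 0 without each of S445, S446, S447, S448 and S449, against higher and lower counts of 1 and 1 without both S448 and S450, 0 and 5 with library totals and 0 and 3 with the control libraries alone. *Ivd*, of leucine breakdown, fell from 138, 123 and 128 to 106, 101 and 88.7 (log2 fold change -0.39, SE 0.07, adjusted p = 0.0033). *Bcat2*, the transaminase at the entry of that pathway, was at 77.7, 72.2 and 84.3 with vehicle and 65.1, 62.3 and 58.0 with AICAR (log2 fold change -0.34, SE 0.09, adjusted p = 0.017). *Bcat2* was not called without S449 (adjusted p = 0.078), S450 (0.075) or both S448 and S450 (0.13). In lipid synthesis, the numbers higher and lower were 1 and 1 of 21 (4.76% and 4.76%, against 8.40% and 4.77%, and 0 and 1 without S446, 2 and 0 without S447, 1 and 0 without each of S448 and S450, 0 and 0 without both S448 and S450, 1 and 0 with the control libraries alone and 2 and 1 with DESeq2). Vehicle mouse S450 was the highest for *Me1*, which supplies NADPH for fatty acid synthesis (at 223, 212 and 277 with vehicle and 172, 157 and 197 with AICAR, log2 fold change -0.44, SE 0.13, adjusted p = 0.032). *Me1* was not called without S445 (adjusted p = 0.052), S447 (0.078), S448 (0.12), S450 (0.14) or both S448 and S450 (0.32). Enzymes of aldehyde and drug metabolism gave 0 higher and 2 lower of 7 (0% and 28.6%, against 8.40% and 4.77%, and 0 and 1 without each of S445, S446, S448 and S450, 0 and 0 without S449, 0 and 1 without both S448 and S450, 0 and 1 with library totals and 0 and 1 with the control libraries alone), the lower ones being *Cbr2*, a carbonyl reductase, and *Aldh2*, the mitochondrial aldehyde dehydrogenase, with log2 fold changes of -0.47 (SE 0.13, adjusted p = 0.025) and -0.29 (SE 0.09, adjusted p = 0.042). *Cbr2* was not called without S446 (adjusted p = 0.11) or S449 (0.11). *Aldh2* was not called without S445 (adjusted p = 0.14), S448 (0.062), S449 (0.17), S450 (0.12) or both S448 and S450 (0.15).

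Secreted factors of muscle gave 6 higher and 0 lower of 15 (40% and 0%, against 8.40% and 4.77%), with a median log2 fold change of 0.47. Between 2 and 4 were higher with 1 mouse left out (2 without S449 and 3 without each of S445, S447 and S450), against higher and lower counts of 2 and 0 without both S448 and S450. *Vegfa*, the main angiogenic factor and a target of PGC-1α, was at 133, 154 and 119 normalised CPM with vehicle and 333, 238 and 288 with AICAR (log2 fold change 1.08, SE 0.28, adjusted p = 0.019). *Vegfa* was not called without S445 (adjusted p = 0.062), S447 (0.059), S449 (0.052), S450 (0.068) or both S448 and S450 (0.079). *Metrnl* (meteorin-like), a myokine induced by exercise, was at 7.10, 8.65 and 8.06 with vehicle and 13.6, 14.6 and 10.3 with AICAR (log2 fold change 0.69, SE 0.16, adjusted p = 0.0095). *Ccl2*, a chemokine that draws monocytes, was at 0.498, 0.778 and 0.870 with vehicle and 3.00, 3.39 and 1.32 with AICAR, low in every mouse (log2 fold change 1.84, SE 0.33, adjusted p = 0.0026). *Fndc5*, the precursor of irisin, had overlapping groups (log2 fold change -0.22, SE 0.18, adjusted p = 0.45). The call of *Metrnl* (adjusted p = 0.089) was lost without both S448 and S450.

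Several myogenic regulators fell, and others of their list had no call. In the list, 5 of 12 fell (41.7%, against 4.77% of all genes) and 1 rose, the adhesion gene *Cdh15* (log2 fold change 0.40 (SE 0.11, adjusted p = 0.022)). Between 1 and 5 were lower with 1 mouse left out (1 without S448 and 2 without S449), and the number higher was 0 without each of S445, S446, S449 and S450, against higher and lower counts of 0 and 1 without both S448 and S450, 0 and 2 with the control libraries alone, 2 and 5 with DESeq2 and 1 and 3 with limma. *Cdh15* was not called without S445 (adjusted p = 0.070), S446 (0.057), S449 (0.11), S450 (0.053) or both S448 and S450 (0.056). *Myod1*, the master regulator of the muscle lineage, was at 17.1, 22.7 and 10.9 normalised CPM with vehicle and 6.75, 3.25 and 3.37 with AICAR, without overlap (log2 fold change -1.93, SE 0.46, adjusted p = 0.013). *Myod1* was not called without S448 (adjusted p = 0.054), S449 (0.062) or both S448 and S450 (0.0505). *Myog* (myogenin) was at 11.5, 17.7 and 12.9 normalised CPM with vehicle and 8.72, 5.93 and 6.10 with AICAR (log2 fold change -1.02, SE 0.23, adjusted p = 0.0093), a call that held without each single mouse. *Pax7*, the marker of satellite cells, was at 1.08, 0.842 and 1.02 with vehicle and 0.668, 0.314 and 0.430 with AICAR (log2 fold change -1.06, SE 0.25, adjusted p = 0.013). *Pax7* was not called without S448 (adjusted p = 0.056), S449 (0.055) or both S448 and S450 (0.12). Genes of the neuromuscular endplate moved in both directions, with 5 of 19 higher and 2 lower (26.3% and 10.5%, against 8.40% and 4.77%, and 2 and 1 without each of S445 and S449, 2 and 2 without S446, 5 and 1 without S448, 3 and 2 without S450, 2 and 1 without both S448 and S450 and 3 and 1 with the control libraries alone). *Ache*, the gene of acetylcholinesterase, was at 33.9, 28.2 and 22.6 normalised CPM with vehicle and 56.0, 61.6 and 79.8 with AICAR (log2 fold change 1.22, SE 0.19, adjusted p = 0.00087). *Runx1*, which rises in denervated muscle, was at 3.51, 4.45 and 4.99 normalised CPM with vehicle and 10.1, 14.6 and 16.7 with AICAR (log2 fold change 1.68, SE 0.30, adjusted p = 0.0026). The kinase gene *Musk* was at 20.3, 20.4 and 21.0 with vehicle and 32.5, 31.7 and 60.9 with AICAR, with S449 the highest (log2 fold change 1.02, SE 0.28, adjusted p = 0.025). *Musk* was not called without S445 (adjusted p = 0.074), S446 (0.066), S449 (0.14), S450 (0.062) or both S448 and S450 (0.061). *Lrp4*, the agrin receptor that activates MuSK, fell from 26.2, 25.6 and 29.6 to 16.5, 15.1 and 16.9 normalised CPM (log2 fold change -0.75, SE 0.15, adjusted p = 0.0053). Among receptor subunit genes, *Chrne* was lower (log2 fold change -0.65, adjusted p = 0.025). *Chrne* was not called without S445 (adjusted p = 0.13), S448 (0.095) or S449 (0.074). The receptor subunit gene *Chrna1* and the denervation-responsive *Gadd45a* had overlapping groups (adjusted p = 0.58 and 0.70). The calls of *Myog* (adjusted p = 0.064) and *Lrp4* (0.070) were lost without both S448 and S450.

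Interferon-inducible genes gave 0 higher and 4 lower of 24 (0% and 16.7%, against 8.40% and 4.77%), and their summed level was 191, 204 and 121 in vehicle-treated and 122, 131 and 119 in AICAR-treated mice. S445 and S446 thus lay above the AICAR mice while vehicle mouse S450 lay within their range. Between 1 and 13 were lower with 1 mouse left out (1 without each of S445, S446 and S449, 2 without S447 and 13 without S450), against higher and lower counts of 0 and 7 without both S448 and S450 and 0 and 0 with the control libraries alone. *Tgtp1* and *Tgtp2*, the deepest decreases among the named genes, were likewise lower in S450 than in S445 and S446. *Tgtp1* was at 23.3, 27.4 and 3.57 normalised CPM with vehicle and 2.13, 1.91 and 2.39 with AICAR (log2 fold change -3.08, SE 0.87, adjusted p = 0.030). *Tgtp2* was at 19.7, 23.7 and 3.02 with vehicle and 2.45, 1.90 and 2.32 with AICAR (log2 fold change -2.80, SE 0.83, adjusted p = 0.037). They are near-identical copies that share reads, so they count as a single observation. *Tgtp1* was not called without S445 (adjusted p = 0.077), S446 (0.083), S447 (0.077), S448 (0.092), S449 (0.087) or both S448 and S450 (0.053). *Tgtp2* was not called without S445 (adjusted p = 0.095), S446 (0.11), S447 (0.083), S448 (0.11), S449 (0.11) or both S448 and S450 (0.059). *Nlrc5* and *Gvin1*, further interferon-responsive genes among the 15 deepest decreases, were much higher in S445 and S446 than in S450. *Nlrc5* was at 5.16, 6.85 and 1.89 with vehicle and 1.55, 1.54 and 1.52 with AICAR. *Gvin1* was at 87.7, 117 and 30.03 with vehicle and 29.3, 26.6 and 25.5 with AICAR. *Nlrc5* was not called without S445 (adjusted p = 0.078), S446 (0.12), S447 (0.068), S448 (0.075) or S449 (0.087). *Gvin1* was not called without S445 (adjusted p = 0.12), S446 (0.18), S447 (0.090), S448 (0.11) or S449 (0.13). *Tgtp1*, *Tgtp2*, *Nlrc5* and *Gvin1* are not members of the list of 24. Neither is *Ifi30*, named for its induction by interferon gamma, which was higher with AICAR (log2 fold change 4.36, adjusted p = 1.1e-08).

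**Figure D4:**
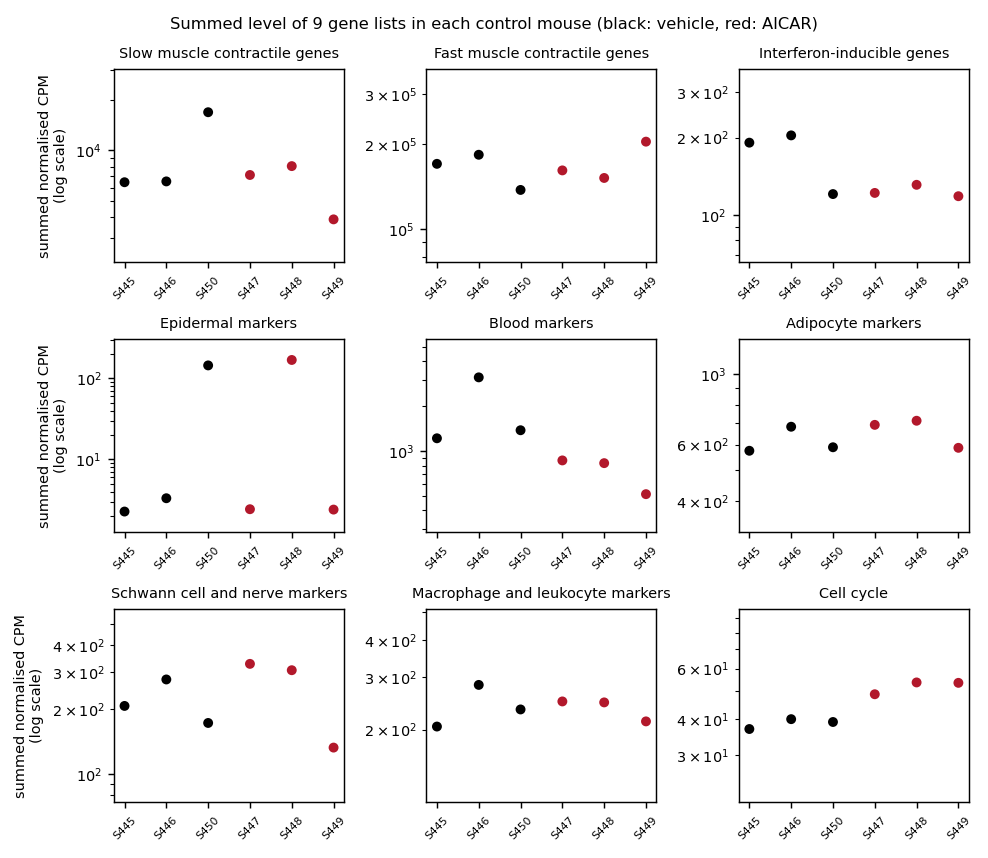
Summed normalised CPM of 9 gene lists (y axes, log scale) in each control mouse (x axes), with vehicle in black and AICAR in red. The slow contractile sum is highest in S450 and lowest in S449, the interferon sum is high in S445 and S446, and the epidermal sum is high in S450 and S448.

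*Cd14*, a macrophage receptor for lipopolysaccharide, was at 3.06, 3.83 and 3.21 normalised CPM with vehicle and 7.89, 9.69 and 7.61 with AICAR (log2 fold change 1.32, SE 0.16, adjusted p = 0.00015). It was the only member called of 18 tested macrophage and leukocyte markers (5.56% and 0%, against 8.40% and 4.77%, and 1 and 0 without both S448 and S450). Their median log2 fold change was 0.00. *Cd68* had overlapping groups (log2 fold change 0.30, SE 0.22, adjusted p = 0.39), and 4 markers of other leukocytes were below the filter. Endothelial markers gave 0 higher and 1 lower of 12 (0% and 8.33%, against 8.40% and 4.77%, and 0 and 0 without each of S445, S446, S448 and S449, 0 and 1 without both S448 and S450 and 0 and 0 with the control libraries alone), namely *Egfl7* (log2 fold change -0.70, adjusted p = 0.029), with no call for *Pecam1* and *Cdh5* (adjusted p = 0.17 and 0.85). *Egfl7* was not called without S445 (adjusted p = 0.092), S446 (0.11), S448 (0.099) or S449 (0.13). Fibroblast markers gave 0 higher and 1 lower of 10 (0% and 10%, against 8.40% and 4.77%, and 0 and 0 without each of S446 and S449, 0 and 2 without S447, 0 and 0 without both S448 and S450 and 0 and 2 with DESeq2), which was *Pi16* at a log2 fold change of -0.91 (adjusted p = 0.013). *Pi16* was not called without S446 (adjusted p = 0.054), S449 (0.068) or both S448 and S450 (0.070). Of 8 pericyte and smooth muscle markers 1 was higher, *Des*, the intermediate filament gene that skeletal muscle also expresses (log2 fold change 0.39, SE 0.09, adjusted p = 0.0098). The list gave 1 higher and 0 lower (12.5% and 0%, against 8.40% and 4.77%, and 2 and 0 without S445, 2 and 1 without S447, 1 and 1 without S450, 1 and 0 without both S448 and S450, 0 and 0 with the control libraries alone and 2 and 0 with DESeq2). Of 18 collagen and matrix genes 2 were higher and 0 lower (11.1% and 0%, against 8.40% and 4.77%, and 0 and 0 without each of S445, S448, S449 and S450, 4 and 0 without S446, 1 and 0 without S447, 0 and 0 without both S448 and S450 and 0 and 0 with library totals). The basement membrane collagens *Col4a1* and *Col4a2* rose, with log2 fold changes of 0.67 (SE 0.19, adjusted p = 0.032) and 0.51 (SE 0.15, adjusted p = 0.040). *Col4a1* was not called without S445 (adjusted p = 0.077), S448 (0.083), S449 (0.093), S450 (0.12) or both S448 and S450 (0.22). *Col4a2* was not called without S445 (adjusted p = 0.070), S447 (0.062), S448 (0.095), S449 (0.11), S450 (0.15) or both S448 and S450 (0.25). *Col1a1* and *Col3a1* had no call (adjusted p = 0.52 and 0.97). Adipocyte, epidermal, Schwann cell, tendon and blood markers gave 0 calls by edgeR, also without both S448 and S450. At an unadjusted p under 0.05 the 5 lists held 1 gene, a tendon marker, and DESeq2 and limma called 0 of them. The summed blood markers were nevertheless 1219.7, 3125 and 1381 in vehicle-treated and 867, 831 and 515 in AICAR-treated mice, so that the groups did not overlap, with the haemoglobin gene *Hba-a1* at a log2 fold change of -1.41 (adjusted p = 0.19), which was -0.83 without S446. Genes of dividing cells were low and rose in 6 of 16 cases, with 0 lower (37.5% and 0%, against 8.40% and 4.77%). Between 0 and 6 were higher with 1 mouse left out (0 without each of S445 and S450, 1 without S448 and 3 without each of S446 and S449), against higher and lower counts of 0 and 0 without both S448 and S450 and 3 and 0 with the control libraries alone. *Mki67*, the most used of them, was at 1.15, 1.66 and 0.856 with vehicle and 2.36, 3.39 and 2.98 with AICAR (log2 fold change 1.25, SE 0.31, adjusted p = 0.017). *Mki67* was not called without S445 (adjusted p = 0.061), S448 (0.060), S450 (0.070) or both S448 and S450 (0.17).

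The rule for the largest changes named 15 higher and 15 lower genes. *Ifi30* was at 9.20, 8.12 and 7.50 normalised CPM with vehicle and 127, 155 and 227 with AICAR, 20.5-fold higher with the smallest adjusted p of the 30 (log2 fold change 4.36, SE 0.20, adjusted p = 1.1e-08; chromosome 8, 70762773 to 70766663). *Clec4d* was at 0.0996, 0.0510 and 0.0679 with vehicle and 0.469, 2.05 and 1.56 with AICAR, so its level stayed low (log2 fold change 4.21, SE 0.68, adjusted p = 0.0012). *Cspg5*, a brain proteoglycan gene, was at 0.185, 0.102 and 0.136 with vehicle and 1.51, 2.00 and 2.58 with AICAR (log2 fold change 3.84, SE 0.49, adjusted p = 0.00022). *Aacs*, which uses ketone bodies for lipid synthesis, was at 7.23, 8.61 and 14.1 normalised CPM with vehicle and 36.6, 76.6 and 88.0 with AICAR (log2 fold change 2.75, SE 0.39, adjusted p = 0.00049; chromosome 5, 125475873 to 125517405). *Ntsr2*, a neurotensin receptor, was at 1.66, 2.17 and 1.37 with vehicle and 11.4, 12.7 and 14.8 with AICAR (log2 fold change 2.90, SE 0.16, adjusted p = 8.1e-08). It overlaps *Lpin1*, a lipid phosphatase gene of much higher level that rose from 286, 295 and 326 to 451.413, 650.1 and 937 normalised CPM (log2 fold change 1.17, SE 0.22, adjusted p = 0.0034), and reads of the pair may not be told apart. For the same reason *Atg9b* (log2 fold change 2.78, adjusted p = 1.0e-04), which overlaps *Nos3*, and *Dgkeos* (log2 fold change 3.16, adjusted p = 0.00049, and 3.95 on the log2 scale without S450), an antisense gene that overlaps *Dgke*, are uncertain. *Dctd*, *Rims4*, *Fut4*, *Mast1* and *Dlk1* were also among the 15, with log2 fold changes of 3.01, 2.93, 2.88, 2.82 and 2.74 from vehicle levels of at most 1.43 normalised CPM. All 15 higher calls held without each single mouse.

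On the lower side, *Ccn1*, a matricellular gene driven by YAP and mechanical load, was at 36.5, 30.8 and 54.3 normalised CPM with vehicle and 7.30, 10.2 and 12.3 with AICAR (log2 fold change -2.03, SE 0.24, adjusted p = 1.0e-04; chromosome 3, 145646971 to 145649985). The MAP kinase phosphatase *Dusp10* was at 37.4, 37.0 and 35.4 normalised CPM with vehicle and 14.1, 12.9 and 10.4 with AICAR (log2 fold change -1.55, SE 0.23, adjusted p = 0.00064). *Pla2g5*, a secreted phospholipase, was at 5.51, 5.73 and 2.57 with vehicle and 1.31, 1.48 and 1.37 with AICAR (log2 fold change -1.73, SE 0.38, adjusted p = 0.0077). These 3 calls and that of *Nmrk2* held without each single mouse, whereas the other 11 of the 15 lower calls did not. *Gadd45g*, a stress-inducible gene, was at 31.1, 24.4 and 95.0 with vehicle and 13.3, 8.05 and 8.05 with AICAR. *Myl6b*, a slow myosin light chain, was at 13.5, 13.9 and 79.4 with vehicle and 12.8, 12.9 and 6.47 with AICAR. S450 was by far the highest for both *Gadd45g* and *Myl6b*. Their log2 fold changes went from -2.36 to -1.50 and from -1.73 to -0.36 without it. *Gadd45g* was not called without S448 (adjusted p = 0.071), S449 (0.080), S450 (0.11) or both S448 and S450 (0.23). *Myl6b* was not called without S447 (adjusted p = 0.069), S448 (0.076), S449 (0.15), S450 (0.46) or both S448 and S450 (0.35). *Kcnf1*, a potassium channel subunit, was at 6.22, 5.04 and 11.8 with vehicle and 2.87, 2.25 and 2.78 with AICAR (log2 fold change -1.54, SE 0.42, adjusted p = 0.025). *Kcnf1* was not called without S447 (adjusted p = 0.053), S448 (0.081), S449 (0.072), S450 (0.12) or both S448 and S450 (0.24). *Clec7a*, the receptor dectin-1, was at 0.868, 1.12 and 1.10 with vehicle and 0.341, 0.262 and 0.401 with AICAR (log2 fold change -1.62, SE 0.39, adjusted p = 0.013). *Clec7a* was not called without S448 (adjusted p = 0.057) or both S448 and S450 (0.11).

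In HSALR muscle the same dose changed 4121 genes (26.6%), with 5 mice a group. Of the 2039 calls of control muscle, 1213 were also called in the same direction there, which is 59.5% of the control calls and 29.4% of the HSALR calls, and 25 were called in the opposite direction. Of the 30 genes with the largest separated changes, 29 had the same sign in HSALR mice, the exception being *Clec7a* (log2 fold change 0.33), and all 15 higher but only 7 of the 15 lower genes passed the test there. *Ifi30*, for instance, had a log2 fold change of 4.36 in control and 4.20 (SE 0.16, adjusted p = 3.9e-10) in HSALR mice, and *Tgtp1* of -3.08 and -0.57 (SE 0.62, adjusted p = 0.54). The difference between the 2 effects was itself called for 107 genes (0.691%), and for 0 of these 30. Leaving out 1 control mouse at a time gave between 15 (without S448) and 81 (without S449) such genes, with 20 without S445, 35 without S450, 47 without S447 and 66 without S446. The epidermal marker *Krt14* was above 1 normalised CPM in 4 of 5 vehicle-treated and 0 of 5 AICAR-treated HSALR mice, and its part in the difference was not tested.

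**Figure D5:**
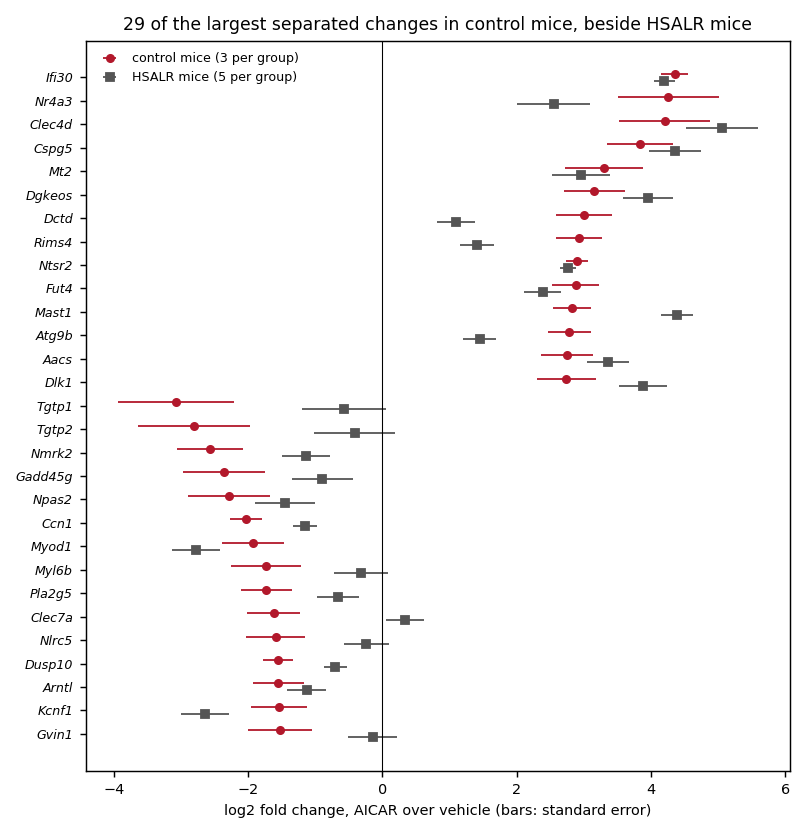
The log2 fold change of AICAR over vehicle (x axis, bars are standard errors of the fit) for 29 of the 30 genes with the largest separated changes in control mice (rows, 14 higher and 15 lower), in control mice (red circles, 3 per group) and in HSALR mice (grey squares, 5 per group). The higher genes are above 0 in both genotypes, while several lower genes, among them *Nlrc5*, *Gvin1* and *Clec7a*, lie near 0 in HSALR mice.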

How the data were processed

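Reads of RNA from the gastrocnemius of 16 mice were counted per gene, and the 6 libraries of FVB/N control mice are the subject here. The deposited table holds raw counts per RefSeq gene. Per the labels the libraries were stranded. Per the study's methods, the authors mapped single-end reads to mm10 (STAR 2.5.2a in the submitters' processing notes) and counted reads that start within exons with QuasR, placing a multi-mapping read at a single location. Whether counting used the strand is not given in the sources used here, so overlapping genes and near-identical copies are uncertain. Genome positions and sequences come from RefSeq tables of the same assembly, which matched 24374 of 24454 genes.

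From these counts, genes were filtered with filterByExpr over the 4 groups (15487 kept), scaled by TMM and tested with the quasi-likelihood test of edgeR 4.0.16 (R 4.3.3) in a fit of all 16 libraries with group as the only term. P-values were adjusted by Benjamini-Hochberg, with a threshold of 0.05. The difference between the AICAR effects of control and HSALR mice was tested as a contrast of the same fit. The method was first run on counts simulated with the fitted spread and with some genes changed by known folds. The simulation held no library differences like those of the epidermal, slow-fibre or interferon-inducible genes, so it does not bear on them. P-values rest on the spread between mice within groups, estimated for each gene over all 4 groups and so over both genotypes. Library totals of 69752809 to 78780617 limit the precision of genes near 0 CPM by counting error only. Control libraries of a group were not duplicates, since their pairs differed by 30.8 to 134 times the counting error (chi-square per degree of freedom).

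Genes were named by rule. These are the 30 with the largest change (15 in each direction) among called genes without overlap and with at least 50 counts on average, predicted genes left out, the anchor genes of 48 lists, and up to 5 called members of each list with the smallest p. The text describes a part of these 269 genes, and *Lpin1*, *Nos3*, *Dgke* and Thra are named in addition because they overlap a named gene. A few of the genes that the rule names are not reported here, and they stay in the counts. The members and lists were chosen with earlier results of these data known. Alternatives were RLE scaling, library totals, DESeq2 1.42.0, limma 3.58.1 with voom weights, no filter, at least 10 counts in every control library, robust dispersion, the control libraries alone, each control mouse left out, and both control libraries with *Krt14* above 1 normalised CPM left out.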

Additional observations from a re-analysis of the deposited data

Results flagged for a closer look

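For 5 of the named genes reported here the AICAR effect in control mice differed from that in HSALR mice (contrast of both effects in the edgeR fit, adjusted over 15487 genes). Differences are log2 fold changes of control minus HSALR mice, and levels are normalised CPM. Of the HSALR libraries, 4 of 5 vehicle-treated and 0 of 5 AICAR-treated ones had *Krt14* above 1, whose part in these differences was not tested.

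*Impact* was 4.42-fold higher with AICAR in control mice. In HSALR mice it was at 16.5 to 21.1 (median 18.9) with vehicle and 17.2 to 33.4 (median 25.5) with AICAR, so its effect there was smaller. The difference was 1.74 (SE 0.24, adjusted p = 0.0062), and its adjusted p ranged from 0.0090 to 0.025 without 1 control mouse at a time. Without both S448 and S450 it was 0.033.

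*Runx1* was called higher with AICAR in control mice, whereas in HSALR mice it was at 17.1 to 31.7 (median 28.3) with vehicle and 15.0 to 33.0 (median 19.0) with AICAR. The difference was 1.85 (SE 0.38, adjusted p = 0.035), and its adjusted p ranged from 0.047 to 0.12 without 1 control mouse at a time and was above 0.05 without S445 (0.12), S446 (0.077), S448 (0.087), S449 (0.070) and S450 (0.067). It was 0.081 with limma. For *Impdh1* the HSALR levels were 17.7 to 21.5 (median 19.4) with vehicle and 17.01 to 20.2 (median 17.9) with AICAR, and the difference was 0.56 (SE 0.10, adjusted p = 0.027). Its adjusted p ranged from 0.047 to 0.087 without 1 control mouse at a time and was above 0.05 without S445 (0.087), S448 (0.055) and S450 (0.056).

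*Atf3* and *Hspb1* were not called in control mice, and in HSALR mice their levels were higher with vehicle than with AICAR. *Atf3* was at 102 to 255 (median 146) with vehicle and 41.3 to 82.4 (median 50.8) with AICAR there, and the difference was 2.90 (SE 0.56, adjusted p = 0.029). Its adjusted p ranged from 0.021 to 0.091 without 1 control mouse at a time and was above 0.05 without S445 (0.091), S448 (0.060), S449 (0.062) and S450 (0.079). *Hspb1* was at 165 to 256 (median 217) with vehicle and 62.5 to 101 (median 74.8) with AICAR, and the difference was 1.23 (SE 0.24, adjusted p = 0.030). Its adjusted p ranged from 0.038 to 0.089 without 1 control mouse at a time and was above 0.05 without S445 (0.089), S446 (0.060), S447 (0.065), S448 (0.063) and S449 (0.060). Without both S448 and S450, the adjusted p of the difference was 0.14 for *Atf3*, 0.13 for *Runx1*, 0.12 for *Impdh1* and 0.085 for *Hspb1*.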

How the results depend on the processing

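The numbers of genes called stayed within 1.5 times the main count under RLE scaling, library totals, limma with voom weights, no filter, the stricter filter and robust dispersion, and under DESeq2 (2670 calls), with an exception for the difference between genotypes, where DESeq2 called 536 genes against 107. With the control libraries alone 1164 genes were called (754 higher, 410 lower). Without both S448 and S450 there were 817 (585 higher, 232 lower), and 16 differences between genotypes. With 1 mouse left out, calls ranged from 1143 to 1726, higher genes from 770 to 1131, lower genes from 373 to 595 and differences from 15 to 81. These fits have fewer mice, which lowers the power of the test. Of the 269 named genes, 0 changed direction past the threshold in any setting that tested them; a few had no value with the stricter filter, with DESeq2 and with the control libraries alone. Calls were lost for 0 of them with DESeq2, 1 with RLE scaling, 4 with robust dispersion, 9 with limma, 10 with no filter, 27 with library totals, 64 with the control libraries alone, 41 to 59 with 1 mouse left out and 96 without S448 and S450, and 99 of 181 named calls held without each single mouse. No paired analysis was possible because the labels give each mouse its own number, which no 2 groups share. With 3 mice per group, the route and hour of dosing not given and whole-muscle RNA, small changes and changes in single cell types may not be detectable.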
